A study of Mus musculus with 6 samples.

Results

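Ovarian macrophage markers were examined in F3 ovaries of CD1 mice, an outbred stock, collected whole at postnatal day 21. The set is 10 genes that mark macrophages: Adgre1, Cd68, Csf1r, Mrc1, Cd14, Mertk, Cx3cr1, Lyz2, Aif1 and Tyrobp. Their rows were selected by symbol, as cell type markers. Of the 10 genes, 9 were measured, out of 16454 genes in all, and Aif1, which encodes a calcium- and actin-binding protein of macrophages, was not analysed here. F3 is generation 3 counted from the dosed dams (F0). The DEHP lineage, with 3 ovaries, descended from F0 dams given the plasticizer di(2-ethylhexyl) phthalate (DEHP) at 20 µg/kg/day. The control lineage, also with 3 ovaries, descended from F0 dams given the vehicle, a corn oil stripped of tocopherol. The labels name no dosing after F0 and no other difference between the lineages, and each ovary was sequenced on its own. Litters and the number of F0 dams are not stated, and p-values measure only the spread between these ovaries, which may be technical.

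Macrophages live in the ovarian stroma, around blood vessels and in follicles that are degenerating. There they take up dead cells, and they respond to growth factors and chemokines made by the cells around them. In a whole ovary their transcripts are a small part of the RNA. In such bulk samples, fewer macrophages and less RNA per macrophage cannot be told apart.

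Values are log2 CPM, the log2 of read counts scaled to library size, as the authors deposited them with one surrogate variable (an estimated nuisance direction across samples) removed. That step took out one of the 4 directions in which 6 ovaries of 2 groups can deviate from their group means. Its weights were -0.60 on DEHP replicate 1 and 0.75 on DEHP replicate 3, against at most 0.19 in size on the other 4 ovaries, so that the spread within the DEHP lineage is understated most. DEHP replicate 3 lay between DEHP replicates 1 and 2 for 4 of the 9 markers, and for 67.0% of all genes. Across all genes DEHP replicates 1 and 3 had a correlation of 0.998, and the other pairs of ovaries one of 0.978 to 0.989. The deposited values carry no depth per library, and their summed CPM was 979868 to 1026735. Markers of ovarian cell types were detected in every ovary. Oocyte markers summed to 817 to 893 CPM in the DEHP lineage and 885 to 1140 CPM in the control lineage. Granulosa cell markers summed to 5440 to 6240 CPM in the DEHP lineage and 4650 to 5410 CPM in the control lineage. Most of the granulosa sum was 1 gene, Inha, with means of 4900 CPM (DEHP) and 4140 CPM (control). Of the 6 granulosa genes, 3 had higher and 3 lower means in the DEHP lineage, with a median log2 difference of 0.026.

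For no macrophage marker was a difference between the lineages found beyond the spread of the ovaries. By limma with Benjamini-Hochberg adjustment over all genes, 0 of the 9 markers passed an adjusted p of 0.05, where 0.0425% of all genes did (0.0243% higher and 0.0182% lower in the DEHP lineage). With 4 residual degrees of freedom in place of 3 it was again 0 of the 9, against 0.122% of all genes. An unadjusted p under 0.05 was reached by 0 of the 9 as well, against 8.78% of all genes. The DEHP and control ovaries overlapped for every one of the 9 markers, while they did not overlap for 22.9% of all genes (10.8% higher and 12.2% lower in the DEHP lineage). All 3 DEHP ovaries lay inside the range of the control ovaries for 7 of the 9, against 27.3% of all genes. Mean log2 CPM was higher in the DEHP lineage for 4 markers and lower for 5, and the median log2 difference of the 9 was -0.002, that of Csf1r, against -0.012 over all genes. In the authors' deposited table, which rests on the same ovaries, 0 of the 9 markers had an adjusted p under 0.05, with values between 0.915 and 0.974. Only 3 of all 16454 genes did so there.

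The largest departure was that of 1 library of the control lineage. Control replicate 2 was the lowest of the 6 ovaries for 8 of the 9 markers, where it was the lowest for 16.7% of all genes. It lay at least 1 log2 unit below the mean of the other 5 ovaries for 6 of the 9, against 2.63% of all genes. Each marker was then centred on its own mean of 6 ovaries, and the median of the 9 was taken per ovary. DEHP replicates 1, 2 and 3 had medians of -0.081, 0.13 and 0.025. In control replicates 1, 2 and 3 the median was 0.36, -1.12 and 0.41. Control replicates 1 and 3 thus lay above all 3 DEHP ovaries, and control replicate 2 below them. The summed level of the 9 markers was 99.2, 126 and 113 CPM in the DEHP ovaries, against 133, 69.8 and 133 CPM in the control ovaries.

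**Figure D1:**
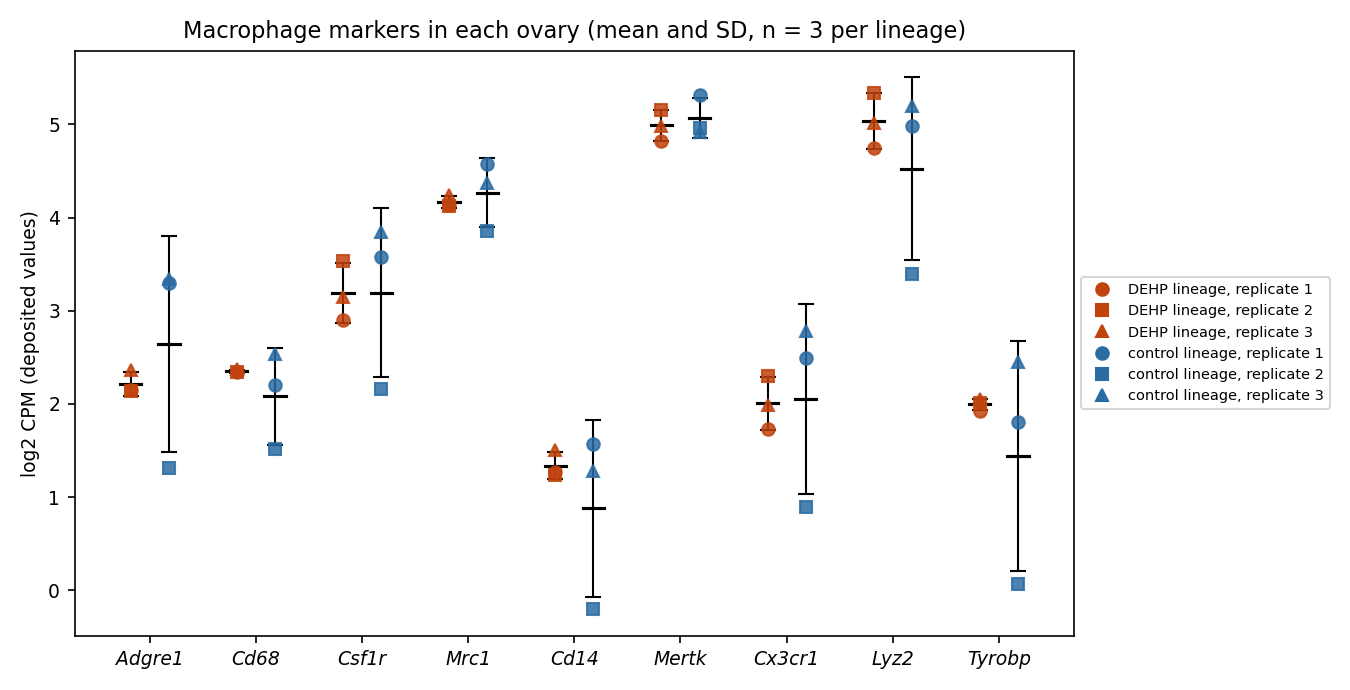
Each point is the log2 CPM of 1 macrophage marker in 1 ovary, with the DEHP lineage (red) left of the control lineage (blue), the marker shape giving the replicate, and bars giving the mean and SD of 3 ovaries. Control replicate 2 (blue square) is the lowest point for every gene but Mertk, and the DEHP ovaries lie within or close to the control range.

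The receptors that keep macrophages alive and guide them varied more within the control lineage than between lineages. Csf1r (Entrez 12978, GRCm38.p6 chromosome 18, 61105572 to 61131139) encodes the receptor for the growth factors CSF1 and IL34, on which macrophages depend. Its level was 7.45, 11.6 and 8.86 CPM in DEHP replicates 1, 2 and 3 and 11.9, 4.48 and 14.4 CPM in control replicates 1, 2 and 3. The control ovaries held both the lowest and the highest value. The log2 difference, DEHP minus control, was -0.0025 (SE 0.43, 95% interval -1.01 to 1.00, limma adjusted p 0.999).

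Cx3cr1 (Entrez 13051, chromosome 9, 120048683 to 120068296) encodes the receptor for the chemokine fractalkine (CX3CL1). It was at 3.33, 4.92 and 3.97 CPM in the DEHP ovaries, against 5.61, 1.85 and 6.89 CPM in the control ovaries. As for Csf1r, the DEHP ovaries all fell inside the control range. The log2 difference was -0.047 (interval -1.19 to 1.09, limma adjusted p 0.983).

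Of the surface receptors, Adgre1 spread most between control ovaries, with an SD of 0.13 on the log2 scale in the DEHP lineage and 1.16 in the control lineage. Adgre1 (Entrez 13733, chromosome 17, 57358581 to 57483529) encodes F4/80, the adhesion receptor by which mouse macrophages are commonly stained. It was at 4.42, 4.40 and 5.14 CPM in the DEHP ovaries, and at 9.82, 2.48 and 10.1 CPM in the control ovaries. The DEHP ovaries were close to each other, below control replicates 1 and 3 and above control replicate 2. The log2 difference was -0.43 (SE 0.52, interval -1.66 to 0.79, limma adjusted p 0.841).

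Mrc1 (Entrez 17533, chromosome 2, 14229414 to 14332023) encodes the mannose receptor CD206, a marker of resident macrophages. Its level was 17.6, 17.4 and 18.9 CPM in the DEHP lineage, against 23.9, 14.5 and 20.7 CPM in the control lineage. Control replicate 2 was again lowest, but by less than for most markers, at -0.43 log2 units relative to the mean of the other 5 ovaries. The log2 difference between lineages was -0.10 (interval -0.54 to 0.34, limma adjusted p 0.900).

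Cd14 (Entrez 12475, chromosome 18, 36725064 to 36726815), which encodes the endotoxin co-receptor that works with TLR4, had the lowest CPM of the markers. It was at 2.42, 2.35 and 2.84 CPM in the DEHP ovaries and at 2.96, 0.87 and 2.43 CPM in the control ovaries. Control replicate 2 stood alone, and the other 5 ovaries lay between 2.35 and 2.96 CPM. The log2 difference was 0.46 (interval -0.64 to 1.55, limma adjusted p 0.810).

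Mertk (Entrez 17289, chromosome 2, 128698915 to 128803162) did not follow the others. It encodes a receptor kinase that binds dead cells through the bridging proteins GAS6 and PROS1. The level was 28.3, 35.7 and 31.6 CPM in the DEHP ovaries, against 39.7, 31.2 and 30.3 CPM in the control ovaries. Here control replicate 2 lay between DEHP replicates 1 and 3, at -0.074 log2 units relative to the mean of the other 5 ovaries. The log2 difference between lineages was -0.079 (SE 0.14, interval -0.41 to 0.25, limma adjusted p 0.894), the narrowest interval of the 9. An annotated antisense gene, Gm14011, overlaps Mertk on the other strand, and since the strand setting of the counting is not given, their reads may not be told apart.

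Of the 9 markers, Tyrobp had the largest gap between control replicate 2 and the other ovaries. Tyrobp (Entrez 22177, chromosome 7, 30413782 to 30417582) encodes DAP12, an adaptor that carries signals from activating receptors of myeloid cells. It was at 3.79, 4.02 and 4.14 CPM in the DEHP lineage and at 3.50, 1.05 and 5.48 CPM in the control lineage. Control replicate 2 was 3.96-fold below the geometric mean of the other 5 ovaries. The DEHP mean was higher by 0.55 log2 units, with an interval of -0.77 to 1.87 (limma adjusted p 0.810).

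Lyz2 (Entrez 17105, chromosome 10, 117277541 to 117282272) encodes the lysozyme of macrophages and neutrophils. Its level was 26.8, 40.5 and 32.4 CPM in the DEHP ovaries, against 31.6, 10.5 and 36.6 CPM in the control ovaries. The highest value was that of DEHP replicate 2, and control replicate 2 was 3.16-fold below the geometric mean of the other 5 ovaries. The log2 difference was 0.51 (SE 0.45, interval -0.53 to 1.56, limma adjusted p 0.775). Without DEHP replicate 1 it was 0.66, and Lyz2 passed (limma adjusted p 0.012) in a fit where limma's prior degrees of freedom were infinite, so that the spread of Lyz2 itself did not enter. With 3 residual degrees of freedom in place of 2 in that fit, the adjusted p was 0.675. Lyz2 shares 32.8% of its 31-base words with Lyz1, a neighbouring gene not analysed here, so its own level is uncertain. The other 8 measured markers share between 0% and 1.75% of theirs with other genes.

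Cd68 (Entrez 12514, chromosome 11, 69664213 to 69666170) encodes a glycoprotein of endosomes and lysosomes. It was at 5.05, 5.07 and 5.17 CPM in the DEHP ovaries and at 4.59, 2.86 and 5.80 CPM in the control ovaries. The DEHP values were almost equal, with an SD of 0.017 on the log2 scale against 0.52 in the control lineage. For each of the 9 markers the SD was smaller in the DEHP lineage, as it was for 69.6% of all genes. The surrogate variable was removed with its largest weights on DEHP ovaries, and its part in this was not tested. The log2 difference of Cd68 was 0.27 (interval -0.39 to 0.92, limma adjusted p 0.816).

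Control replicate 2 decided the direction of several of these differences. Without it, the mean was lower in the DEHP lineage for all 9 markers, with a median log2 difference of -0.14, against -0.01 over all genes. That ovary was singled out for its low values of these same markers. Leaving it out lowers most of their differences by construction, so nothing is read from the count of lower means. The p-values without it do not allow for that choice. The signs of Cd68, Cd14, Lyz2 and Tyrobp turned, to -0.017, -0.087, -0.051 and -0.14. For Adgre1 the log2 difference became -1.10 (SE 0.21, interval -1.59 to -0.61), with an unadjusted p of 0.00104 and an adjusted p of 0.270 by limma. Csf1r and Cx3cr1 came to -0.52 and -0.63, with limma adjusted p values of 0.626 and 0.606. Still 0 of the 9 passed the adjusted threshold, where 0.0182% of all genes did, and 2 of the 9 had an unadjusted p under 0.05, against 8.23% of all genes. Control replicates 1 and 3 both lay above all 3 DEHP ovaries for 4 of the 9 markers (Adgre1, Csf1r, Mrc1 and Cx3cr1), and did so for 19.5% of all genes. These 2 control ovaries are the only ones left in their group, so their spread rests on a single difference per gene.

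**Figure D2:**
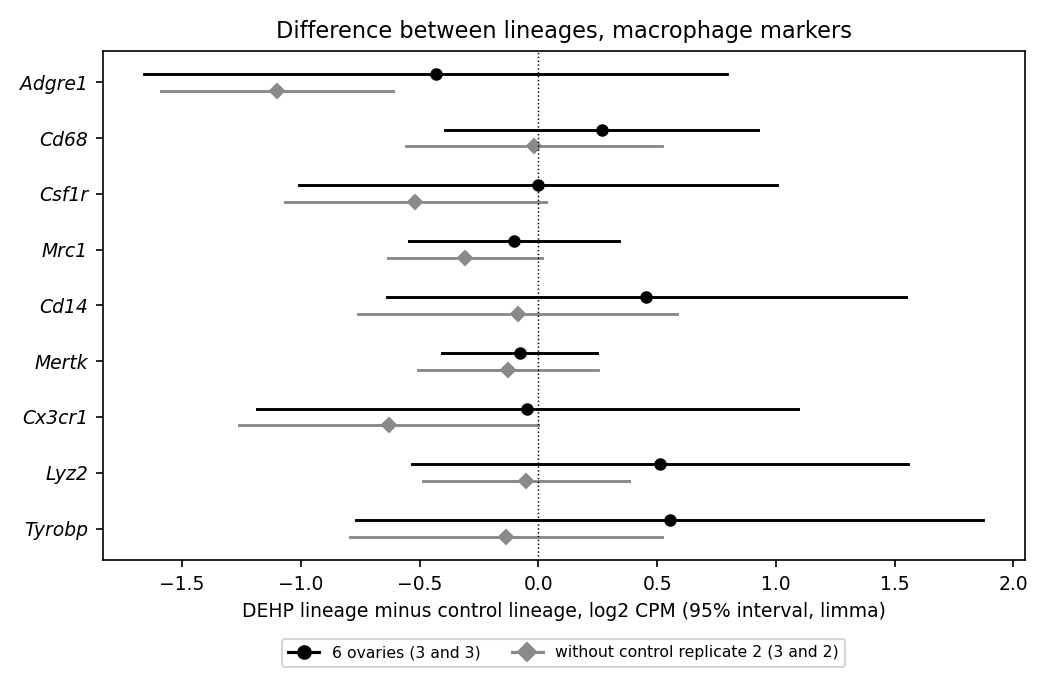
Points are log2 differences (DEHP lineage minus control lineage) of the 9 macrophage markers, and lines are 95% intervals from limma, over 6 ovaries (black circles) and without control replicate 2 (grey diamonds). Every black interval covers 0, and among the grey ones that of Adgre1 lies farthest below it, at -1.59 to -0.61.

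Levels of different genes were compared per kilobase of exon. Lyz2 had the highest level in the DEHP lineage, at 31.5 ± 6.51 CPM per kilobase, against 24.8 ± 13.1 in the control lineage (SD, n = 3 each). Mertk came next at 7.35 ± 0.85 in the DEHP lineage and 7.78 ± 1.19 in the control lineage, followed by Tyrobp at 6.21 ± 0.27 in the DEHP lineage and 5.2 ± 3.46 in the control lineage. Lyz2 was above Mertk in 6 of 6 ovaries and Mertk above Tyrobp in 5 of 6. Cd68, at 4.06 ± 0.05 in the DEHP lineage and 3.51 ± 1.18 in the control lineage, was above Mrc1 in 4 of 6 ovaries, so the order of these neighbours is not settled. Mrc1 had a level of 2.85 ± 0.13 CPM per kilobase in the DEHP lineage and 3.12 ± 0.76 in the control lineage. Csf1r, at 2.15 ± 0.49 in the DEHP lineage and 2.38 ± 1.19 in the control lineage, was below Mrc1 in 5 of 6 ovaries. Adgre1 was at 1.44 ± 0.13 CPM per kilobase in the DEHP lineage and 2.31 ± 1.33 in the control lineage. Cd14 was at 1.46 ± 0.15 in the DEHP lineage and 1.21 ± 0.63 in the control lineage, and it exceeded Adgre1 in 2 of 3 DEHP ovaries and in 0 of 3 control ovaries. Cx3cr1 had the lowest level in the DEHP lineage, at 1.09 ± 0.21, against 1.28 ± 0.70 CPM per kilobase in the control lineage, where Cd14 was lowest by its mean. In control replicates 1 and 2, Cx3cr1 (1.5 and 0.493) was below Cd14 (1.71 and 0.502), and in control replicate 3 it was above it (1.84 against 1.4), so the order of this pair is not settled.

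Promoter sequences are shown for the measured markers that have one in the RefSeq table, 4 that were lowest in control replicate 2 and Mertk, which was not. RefSeq promoters of GRCm38.p6 (250 bases before to 50 after the start) were matched for 6 of the 10 markers. They are Cd68, Mrc1, Mertk, Cx3cr1, Lyz2 and Aif1. They were searched on both strands for GAGGAA and for TGANTCA, the site of AP-1 factors. GAGGAA is a form of the site bound by PU.1, the factor that sets the macrophage lineage. Below, matches to either motif are in capitals. The order is that of the gap between control replicate 2 and the geometric mean of the other ovaries. Lyz2 (chr10:117282223-117282522, minus strand) was 3.16-fold lower in control replicate 2 and Cx3cr1 (chr9:120068247-120068546, minus strand) 2.59-fold. Cd68 (chr11:69666121-69666420, minus strand) was 1.79-fold lower there, Mrc1 (chr2:14229164-14229463, plus strand) 1.35-fold and Mertk (chr2:128698665-128698964, plus strand) 1.05-fold.
Lyz2: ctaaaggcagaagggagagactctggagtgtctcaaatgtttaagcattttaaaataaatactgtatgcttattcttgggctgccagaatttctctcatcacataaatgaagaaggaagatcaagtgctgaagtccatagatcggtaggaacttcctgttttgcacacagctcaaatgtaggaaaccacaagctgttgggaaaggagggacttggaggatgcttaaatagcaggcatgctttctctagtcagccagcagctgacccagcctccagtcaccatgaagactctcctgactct
Cx3cr1: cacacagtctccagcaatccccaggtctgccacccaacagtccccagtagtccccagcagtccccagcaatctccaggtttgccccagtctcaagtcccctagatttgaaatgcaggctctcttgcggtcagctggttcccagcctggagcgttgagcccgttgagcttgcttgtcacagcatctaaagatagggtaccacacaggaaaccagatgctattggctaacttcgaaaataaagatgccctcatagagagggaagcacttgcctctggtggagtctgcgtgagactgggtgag
Cd68: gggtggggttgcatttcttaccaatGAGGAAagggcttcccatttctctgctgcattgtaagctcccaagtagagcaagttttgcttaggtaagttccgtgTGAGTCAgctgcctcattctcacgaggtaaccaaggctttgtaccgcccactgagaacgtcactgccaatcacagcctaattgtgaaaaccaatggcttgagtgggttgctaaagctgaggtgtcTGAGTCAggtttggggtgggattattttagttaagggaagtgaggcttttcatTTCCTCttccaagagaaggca
Mrc1: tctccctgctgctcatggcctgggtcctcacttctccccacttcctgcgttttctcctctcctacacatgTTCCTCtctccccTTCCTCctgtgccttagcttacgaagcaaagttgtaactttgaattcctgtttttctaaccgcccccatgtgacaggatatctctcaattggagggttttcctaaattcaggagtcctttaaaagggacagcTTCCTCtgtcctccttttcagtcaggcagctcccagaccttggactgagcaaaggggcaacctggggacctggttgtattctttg
Mertk: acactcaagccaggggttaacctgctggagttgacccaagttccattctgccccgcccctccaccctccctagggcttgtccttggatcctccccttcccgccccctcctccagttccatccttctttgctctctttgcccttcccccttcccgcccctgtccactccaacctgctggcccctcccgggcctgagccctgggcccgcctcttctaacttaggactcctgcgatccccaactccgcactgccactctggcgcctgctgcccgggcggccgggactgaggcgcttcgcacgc
GAGGAA was in 3 of the 6 promoters (Cd68, Mrc1 and Aif1, the last of which has no level here), in 28.3% of all 32851 promoters of the table and in 26.7% of those of 12482 genes measured here. Lyz2 and Cx3cr1, with the largest gaps of the 5, had no match to GAGGAA, and PU.1 sites without this word were not searched for. TGANTCA was in that of Cd68 only among the 6, as TGAGTCA at positions -149 and -24 from the start, in 7.81% of all promoters and in 5.54% of those of genes measured here. The longer PU.1 word GAGGAAGT, which contains the first motif, was in 0 of the 6, in 3.2% of all promoters and in 2.97% of those of genes measured here. The TATA box TATAAA was in 0 of the 6, in 13.6% of all promoters and in 7.83% of those of genes measured here. The promoter of Mertk had a G and C content of 66.0%, against 44.3% for Lyz2, 54.3% for Cx3cr1, 47.7% for Cd68, 50.3% for Mrc1 and a median of 52.7% over all promoters.

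Many other genes of macrophages repeated the pattern by ovary rather than by lineage, but some did not. Of 20 further macrophage markers, 19 were measured, with 12 higher and 7 lower means in the DEHP lineage, 0 called and a median log2 difference of 0.05. Control replicate 2 was lowest for 12 of the 19, and at least 1 log2 unit below the mean of the other 5 ovaries for 9. Lyve1, Folr2, Cd163, Sirpa and Ctsc did not share the drop. In control replicate 2 they were at 0.125, 0.21, -0.028, 0.004 and -0.026 log2 units relative to that mean. C1qa, C1qb and C1qc, which encode the subunits of the complement recognition protein made by tissue macrophages, were at -1.15, -1.58 and -1.76 log2 units there relative to the mean of the other 5 ovaries. Between lineages their log2 differences were -0.076, 0.17 and 0.073, with limma adjusted p values of 0.967, 0.931 and 0.979. Msr1, a scavenger receptor gene, was the only one of the 19 with an unadjusted p under 0.05 (0.0319). Its log2 CPM was 1.57, 1.59 and 1.75 in the DEHP ovaries, against 1.09, -0.28 and 0.96 in the control ovaries. These groups did not overlap, but the difference of 1.04 (SE 0.39) had a limma adjusted p of 0.535.

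Genes of all white blood cells were low in control replicate 2 as well. It was lowest for 8 of 8 measured pan-leukocyte genes, which summed to 42.1, 43.2 and 45.5 CPM in the DEHP ovaries and 53.8, 26.9 and 61.9 CPM in the control ovaries. Ptprc, which encodes CD45, had log2 CPM of 1.86, 2.30 and 2.16 in the DEHP ovaries, against 2.37, -0.11 and 2.91 in the control ovaries. Spi1, the gene of PU.1, was at 0.85, 0.63 and 1.01 in the DEHP ovaries, against 0.97, -0.82 and 0.99 in the control ovaries. Cd74, the invariant chain of class II antigen presentation, spread most, at 3.07, 4.08 and 3.54 in the DEHP ovaries, against 4.45, 0.73 and 5.60 in the control ovaries. Between lineages, Ptprc, Spi1 and Cd74 had log2 differences of 0.38, 0.45 and -0.032, with limma adjusted p values of 0.901, 0.832 and 0.995.

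Markers of single other white blood cell types were few in these data. Of 12 lymphocyte markers 5 were measured, summing to 6.66 to 7.96 CPM in the DEHP lineage and 5.75 to 8.65 CPM in the control lineage, and control replicate 2 was lowest for 3 of them. Lyz2 and Tyrobp are also expressed by neutrophils, of whose 10 markers 1 was measured, at 0.848 to 1.10 CPM in the DEHP ovaries and 0.114 to 0.822 CPM in the control ovaries. That gene, Csf3r, which encodes the receptor for G-CSF, was lowest in control replicate 2, 7.66-fold below the geometric mean of the other 5 ovaries. Mast cell and dendritic cell markers were measured for 1 of 8 and 3 of 8, and control replicate 2 was lowest for 0 and 1 of them. The part of these cells in the marker levels was not tested.

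**Figure D3:**
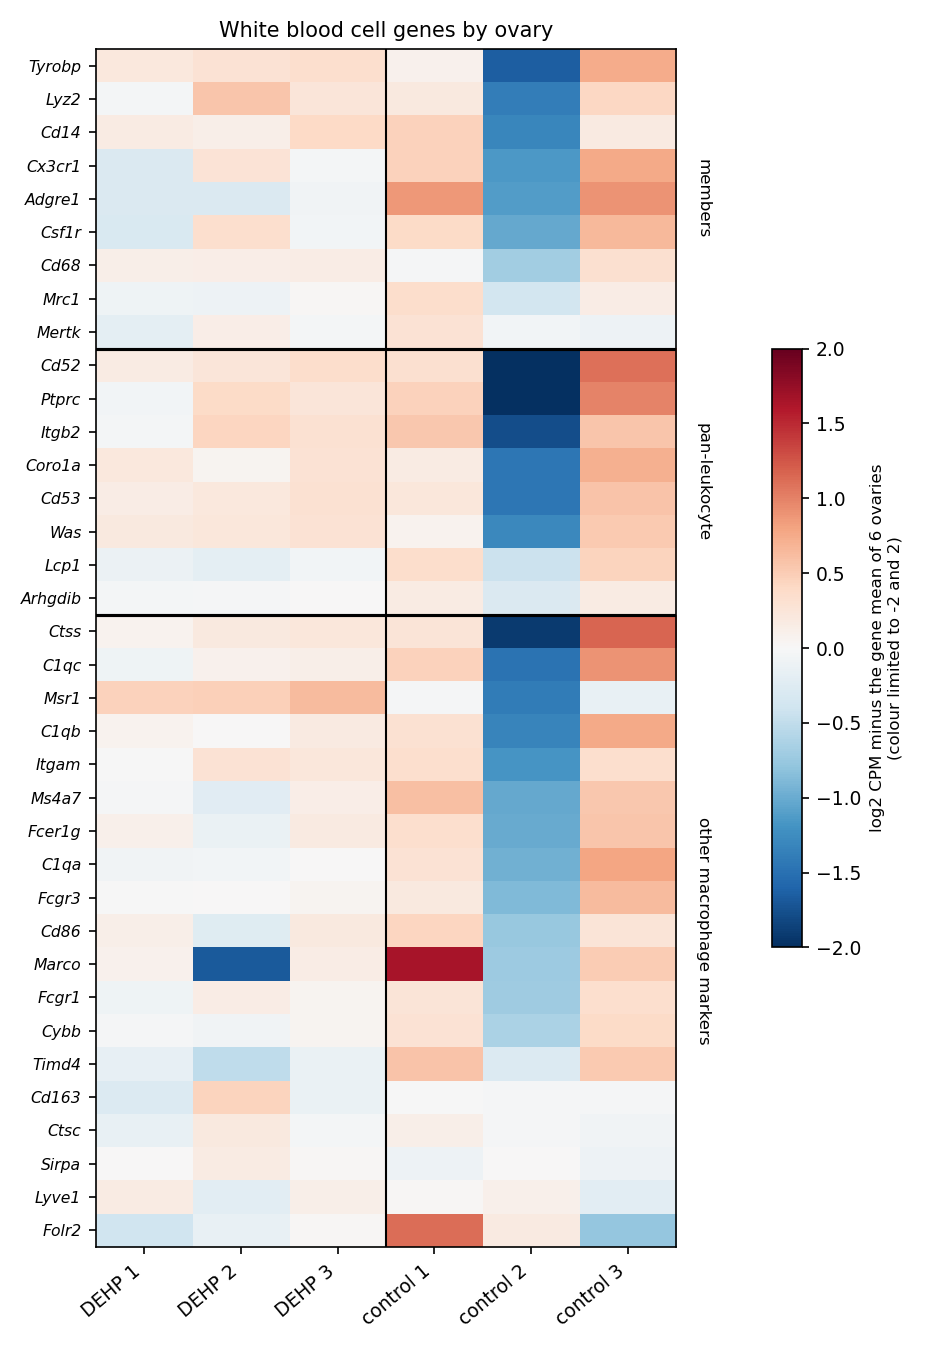
Colour gives log2 CPM minus the gene's mean over 6 ovaries for the 9 macrophage markers, 8 pan-leukocyte genes and 19 other macrophage markers, with DEHP ovaries left of control ovaries. The column of control replicate 2 is blue for most genes, at -1.65 for Tyrobp, and is near 0 for Mertk.

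Among growth factors and recruiting signals of macrophages, 10 of 14 genes were measured, 7 with higher and 3 with lower means in the DEHP lineage, and 0 were called. Csf2ra alone among them had a limma unadjusted p under 0.05 (0.0246) and groups that did not overlap. Its log2 difference was 0.28 (limma adjusted p 0.511). Control replicate 2 was lowest for 4 of the 10. Csf1, a ligand of CSF1R, had a log2 difference of 0.10 (limma adjusted p 0.870), and Il34, the other ligand, one of 0.43 (0.728). Cx3cl1, the ligand of CX3CR1, had one of 0.20 (0.760). In control replicate 2, Csf1, Il34 and Cx3cl1 were at -0.44, -0.080 and 0.092 log2 units relative to the mean of the other ovaries.

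The genes of dead cell uptake included the ligands of MERTK, with 14 of 14 measured, 6 higher, 8 lower and 0 called. Gas6 had log2 CPM of 9.43, 9.10 and 9.39 in the DEHP ovaries, against 9.74, 9.52 and 9.74 in the control ovaries. The groups did not overlap, and the log2 difference was -0.36 (SE 0.12, unadjusted p 0.0221, limma adjusted p 0.501). Pros1, the other ligand, had a log2 difference of -0.016 (interval -0.29 to 0.25, limma adjusted p 0.976). Axl, a receptor of the same family as MERTK, had one of 0.21 (limma unadjusted p 0.045, adjusted p 0.565). Its groups did not overlap either, with the DEHP ovaries higher.

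Signalling behind the markers gave 0 calls as well. In the TYROBP list 8 of 15 genes were measured, with 5 higher and 3 lower means, and its kinase gene Syk had a log2 difference of 0.11 (limma adjusted p 0.814). In the endotoxin response around CD14, 10 of 12 genes were measured, 4 higher and 6 lower, and control replicate 2 was lowest for 4. Of 8 myeloid transcription factor genes, all measured, Maf had the smallest p, with log2 CPM of 5.27, 5.45 and 5.30 in the DEHP ovaries and 4.99, 5.16 and 4.89 in the control ovaries (log2 difference 0.32, limma adjusted p 0.491). Maf did not share the drop in control replicate 2, at -0.015 log2 units there relative to the mean of the other ovaries. Control replicate 2 was lowest for 3 of these 8 genes. Lysosomal genes, which most cells express, numbered 14 of 14 measured, and control replicate 2 was lowest for 2. Over all 22 lists beside the 9 markers, 157 genes were measured and 0 were called, while 20 had an unadjusted p under 0.05, or 12.7%, against 8.78% of all genes.

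Markers of other cell types were summed by ovary. Oocyte markers summed to 883, 817 and 893 CPM in DEHP replicates 1, 2 and 3, against 1130, 885 and 1140 CPM in control replicates 1, 2 and 3. Control replicate 2 was thus the lowest control ovary, at the level of the DEHP ovaries. Adipocyte markers, a readout of adherent fat, summed to 251 to 851 CPM in the DEHP lineage and 277 to 584 CPM in the control lineage, with control replicate 2 in the middle at 373 CPM. Erythroid markers, a readout of blood, summed to 115 to 290 CPM in the DEHP lineage, against 65.6 to 127 CPM in the control lineage, where control replicate 2 was at 77.3 CPM. The median of the 5 measured erythroid genes there was -0.78 log2 units relative to the other ovaries, and control replicate 2 was lowest for 0 of the 5. Blood endothelial markers in control replicate 2 summed to 359 CPM, the highest of the 6 ovaries, and theca and interstitial markers to 3090 CPM, also the highest. Most of the theca and interstitial sum was 1 gene, Hsd3b1, with means of 2060 CPM (DEHP) and 2360 CPM (control). Control replicate 2 was lowest for 1 of the 6 theca and interstitial genes. The part of any of these cell types in the low macrophage level of that ovary was not tested.

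**Figure D4:**
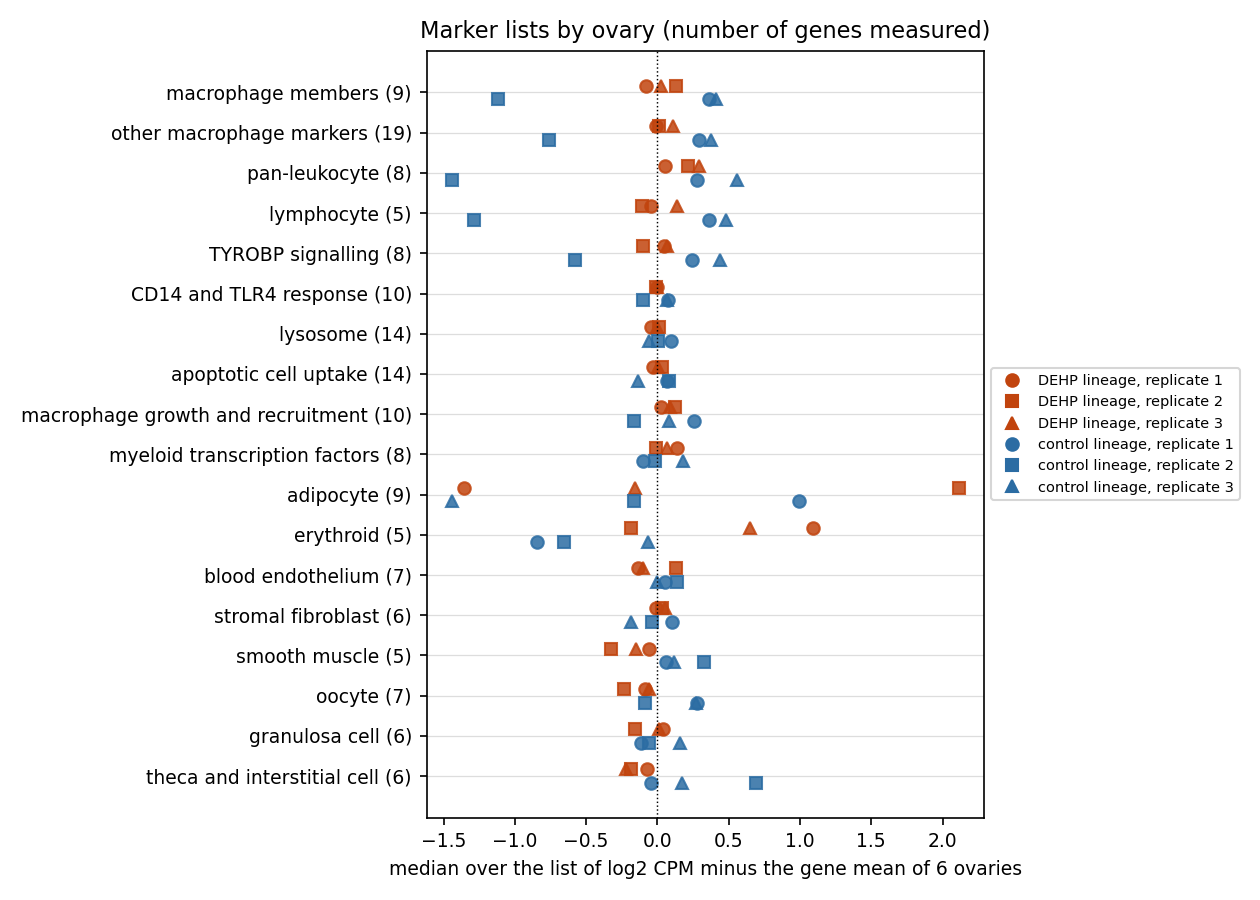
Each point is the median over a marker list of log2 CPM minus the gene's mean over 6 ovaries, for 1 ovary (red DEHP lineage above blue control lineage, shape by replicate, number of measured genes in brackets). Control replicate 2 (blue square) lies far left for macrophage, pan-leukocyte and lymphocyte genes, at -1.12, -1.44 and -1.29, and near the other ovaries for lysosomal, endothelial and granulosa genes.

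Genes whose values over the 6 ovaries were most like the mean of the 9 markers were named by Pearson's r, as a description. All points of such an r come from the same 6 libraries, and control replicate 2 weighs heavily in it. Among 13063 genes with a mean log2 CPM of at least 1, 73 genes outside the set had an r of 0.95 or more. The 10 highest were Gbp8, Phf19, Ethe1, Ptprc, Zbtb8b, Nfkbiz, Tbpl1, Ghdc, Rac2 and Scly, with r between 0.990 and 0.998. Their size of change differed widely. Ptprc, Rac2 (a GTPase of blood cells) and Gbp8 (a guanylate-binding protein) were at -2.43, -1.95 and -0.94 log2 units in control replicate 2 relative to the mean of the other ovaries, while Tbpl1 was at -0.095. Of the 9 markers themselves, 8 had an r between 0.857 and 0.973 with their mean, and Mertk had 0.317. Each marker is part of that mean, which raises its r, so these values are not comparable with those of genes outside the set. Without control replicate 2, r over 5 ovaries was 0.982 for Cx3cr1, 0.951 for Csf1r and 0.895 for Adgre1. It was 0.203 for Cd14, 0.264 for Cd68 and 0.505 for Tyrobp.

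Levels of the markers relative to each other were also set side by side, a comparison chosen after the values had been seen. Each marker's log2 CPM was taken minus the mean of the other measured markers in the same ovary. Adgre1 was then at -0.84, -1.12 and -0.80 in DEHP replicates 1, 2 and 3, against -0.017, -0.77 and -0.088 in control replicates 1, 2 and 3. The groups did not overlap, and control replicate 2 lay just above DEHP replicate 3. Lyz2 was at 2.09, 2.49 and 2.19 in the DEHP ovaries and 1.88, 1.58 and 2.00 in the control ovaries, again without overlap. The groups overlapped for the other 7 markers. Over all genes, taken minus the mean of the 9 markers, the groups did not overlap for 2.66% (0.948% higher and 1.71% lower in the DEHP lineage), against 22.9% without the subtraction. The subtracted mean carries the low value of control replicate 2, which most genes do not share, so the 2.66% is no background for macrophage genes, and nothing is read from the 2 of 9.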

How the data were processed

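Polyadenylated RNA of 6 whole ovaries was sequenced from one end with a strand-marking kit, per the labels' protocols. The authors deposited 1 table of 16454 genes with log2 CPM per ovary and their own log2 fold changes, signed linear fold changes (here given the unit score, as deposited and not used) and p-values, the surrogate variable removed according to the table's name. The submitters' processing notes name edgeR 3.20.5 with R 3.4.3, Subread 1.5.2 with featureCounts, STAR 2.5.3a, Trimmomatic 0.36, FastQC 0.11.5 and bcl2fastq 2.17.1.14, on the build GRCm38.p6. Settings, strand in counting and the prior count are not stated there. No counts or depths could be recovered, since all 16454 values of a column differ, so low genes carry an unknown counting error.

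Groups were compared with limma 3.58.1 in R 4.3.3 on the deposited values (two-sided, mean-variance trend, Benjamini-Hochberg over all genes, threshold 0.05). It used 3 residual degrees of freedom, 1 fewer than the design gives, to count the removed variable, and was checked on simulated data. Levels per kilobase used GENCODE M21 exons within the RefSeq gene. Alternatives were 4 degrees of freedom, the replicate block, quantile normalization, median centring, log2(CPM + 1), a mean log2 CPM of at least 1, no trend, DEHP replicates 1 and 3 averaged, and each ovary left out. Members and lists were chosen with earlier results of these data known. Named by rule are all measured markers, up to 4 genes of each list with the smallest p, 11 partner genes and the 10 most alike. Lyve1, Folr2, Cd163, Ctsc, Itgam and Ccr2 fall outside that rule and were named after their values had been seen.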

Additional observations from a re-analysis of the deposited data

How the results depend on the processing

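The number of macrophage markers called was 0 of 9 with all 6 ovaries under each alternative tried, and 0 to 1 when an ovary was left out, the 1 being Lyz2 without DEHP replicate 1. Over all genes, 7 were called, against 20 with 4 residual degrees of freedom, 3 after quantile normalization, 1 without the trend, and 3 to 270 when an ovary was left out with 2 residual degrees of freedom. The 270 (without DEHP replicate 1) and 183 (without DEHP replicate 3) came from fits with infinite prior degrees of freedom. Left out with 3 residual degrees of freedom, a setting added after seeing the data, single ovaries gave 2 to 35 genes and 0 of 9 markers, and the adjusted p of Adgre1 without control replicate 2 was 0.0967. The replicate block gave 6 genes and 0 of 9 markers. Same-numbered ovaries' deviations correlated at -0.327, -0.003 and -0.198, and the main fit did not pair the ovaries. Deviations from means of 3 ovaries are tied to each other, so these values cannot decide whether the numbers pair the ovaries. The sign of Csf1r, at -0.0025, turned with median centring (0.0077) and with DEHP replicates 1 and 3 averaged (0.083), and that of Cx3cr1 in the averaged fit (0.026). Leaving out 1 ovary gave differences of -1.10 to -0.088 for Adgre1, -0.017 to 0.49 for Cd68, -0.52 to 0.32 for Csf1r, -0.31 to 0.052 for Mrc1, -0.087 to 0.80 for Cd14, -0.16 to 0.043 for Mertk, -0.63 to 0.32 for Cx3cr1, -0.051 to 0.85 for Lyz2 and -0.14 to 1.06 for Tyrobp. The median of the markers relative to their means differed by 0.14 between lineages, and by -0.28 to 0.36 with an ovary left out. The pooled SD of 0.62 rests mostly on control replicate 2 (SD 0.11 in the DEHP lineage, 0.87 in the control lineage), so it does not bear on the -0.28 found without that ovary. The causes of these shifts were not tested. Depth is unknown, so how far it limits each marker could not be computed. Cd68, Cd14, Cx3cr1 and Tyrobp were below 7 CPM in every ovary.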

Other observations

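Some further macrophage genes were set against the mean of the 9 markers in the same ovary, a comparison chosen after the values had been seen. Of 19 such genes, 3 did not overlap between the lineages, and of 8 pan-leukocyte genes 1 did not. The share over all genes, 2.66%, is no background here, since most genes do not share the low value of control replicate 2. These values are a description, and nothing is read from the 3 of 19. Msr1, a scavenger receptor gene, was at -1.32, -1.54 and -1.33 in the DEHP ovaries, against -2.22, -2.28 and -2.45 in the control ovaries. That put each DEHP ovary above each control ovary, control replicate 2 included. Timd4, which encodes a receptor for dead cells on resident macrophages, was at -1.94, -2.53 and -2.09 in the DEHP ovaries, against -1.62, -1.16 and -1.78 in the control ovaries. Itgam, an integrin gene of myeloid cells, was at -1.99, -1.94 and -1.94 in the DEHP ovaries, against -2.07, -2.28 and -2.18 in the control ovaries.

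Of 6 measured monocyte genes, 2 had higher and 4 lower means in the DEHP lineage, and 0 were called. The 2 higher ones, Ccr2 and F13a1, had log2 differences of 0.42 and 0.36. Plac8 had the smallest p of the 6. Its log2 CPM was 3.60, 3.67 and 3.75 in the DEHP ovaries and 4.73, 3.76 and 4.56 in the control ovaries. Its log2 difference was -0.68 (SE 0.25, limma adjusted p 0.522), and -0.97 without control replicate 2 (adjusted p 0.201).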
